A study of Mus musculus with 16 samples.

Results

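The choroid plexus genes described here are Ttr, Aqp1, Kl, Folr1, Kcne2, Clic6, Otx2, Slc4a5, Sostdc1 and F5. They were chosen by symbol, and the mouse Ensembl gene IDs of the count tables were matched to those symbols through the GENCODE M21 annotation of GRCm38. All 10 were found among the 49671 genes of the tables, and all 10 passed the filter on low counts, which left 18875 genes for testing. The choroid plexus is a fringe of tissue inside the brain ventricles, in which a single layer of epithelial cells surrounds a core of leaky capillaries and stroma. Its epithelium secretes cerebrospinal fluid through ion transporters and water channels, carries hormones and vitamins from blood into that fluid, and is sealed by tight junctions. It meets blood-borne inflammatory signals directly, which is why its genes are of interest after an injection of bacterial endotoxin.

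RNA was sequenced from the whole brain of 16 C57BL/6 mice, 1 library per mouse, with 4 mice in each of 4 groups. Lipopolysaccharide (LPS), the endotoxin of Gram-negative bacteria and a ligand of Toll-like receptor signalling, or saline was given by intraperitoneal injection to the pregnant dam on day 16 of gestation. Offspring described as male received LPS or saline by the same route on postnatal day 30, and the labels give the age as postnatal day 32. LPS-LPS mice had LPS at both times, LPS-saline mice had a dam given LPS and saline in puberty, saline-LPS mice had a dam given saline and LPS in puberty, and saline-saline mice had saline at both times. The order of the words in each group name is read here as dam first and offspring second, which the labels do not spell out. Neither litters nor the LPS dose appear in the labels, so mice of a group may share a dam, and p-values then reflect only the spread of the animals sampled.

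The libraries held 25729919 to 38571036 counts in genes, with a median of 31810757, so 1 read was worth at most 0.0389 CPM (reads of a gene scaled to a fixed library size). Levels below are CPM scaled by the trimmed mean of M-values (TMM), whose factors lay between 0.988 and 1.01. Neuronal, myelin and astrocyte genes were high in every library, with Snap25 at 980.5 to 1681 CPM, Mbp at 5237 to 7144 CPM and Slc1a2 at 1822 to 2650 CPM. Libraries differed in the brain regions they held: Gabra6, which marks granule cells of the cerebellum, was under 1 CPM in 8 libraries and at 2.5 to 70.4 CPM in the other 8. LPS-LPS replicate 3 held 503 CPM of Xist and no Ddx3y count, against at most 0.276 CPM of Xist and at least 35.6 CPM of Ddx3y in the other libraries, which goes against the description of the offspring as male. Where a result rests on that library, values without it are given.

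Promoter windows let a reader compare the letters before annotated starts of member genes. RefSeq entries on GRCm38.p6 covered 6 of the 10 members with 10 start sites. The 4 windows below belong to Aqp1, the called member, to Kl, whose averaged prenatal difference is described below, and to Otx2 and Kcne2, the transcription factor and the channel subunit of the set. Each is the 250 bases before an annotated start, 5′ to 3′ on the gene's strand. That of Otx2 lies inside the span of the gene in GENCODE, 48657677 to 48673819. Capitals mark matches on either strand to the GC box (GGGCGG), to the core bound by Otx proteins (TAATCC) or to TATAAA, a letter run found near many starts.
Aqp1 (chr6:55336049-55336298, plus strand): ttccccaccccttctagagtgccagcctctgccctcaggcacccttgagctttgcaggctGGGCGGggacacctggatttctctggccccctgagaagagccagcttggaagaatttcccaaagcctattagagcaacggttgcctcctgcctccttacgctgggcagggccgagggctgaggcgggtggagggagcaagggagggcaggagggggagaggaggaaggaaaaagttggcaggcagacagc
Kl (chr5:150952357-150952606, plus strand): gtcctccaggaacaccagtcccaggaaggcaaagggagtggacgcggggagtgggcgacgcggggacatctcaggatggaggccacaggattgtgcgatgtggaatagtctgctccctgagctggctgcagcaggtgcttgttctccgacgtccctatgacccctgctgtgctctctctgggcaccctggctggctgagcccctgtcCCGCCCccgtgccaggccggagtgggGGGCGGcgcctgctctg
Otx2, first of 4 entries (chr14:48667645-48667894, minus strand): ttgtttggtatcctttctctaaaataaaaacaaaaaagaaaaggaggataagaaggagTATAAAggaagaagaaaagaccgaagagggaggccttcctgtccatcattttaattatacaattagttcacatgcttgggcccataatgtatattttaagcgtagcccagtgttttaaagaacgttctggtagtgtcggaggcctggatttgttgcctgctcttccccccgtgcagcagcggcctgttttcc
Kcne2, first of 2 entries (chr16:92292139-92292388, plus strand): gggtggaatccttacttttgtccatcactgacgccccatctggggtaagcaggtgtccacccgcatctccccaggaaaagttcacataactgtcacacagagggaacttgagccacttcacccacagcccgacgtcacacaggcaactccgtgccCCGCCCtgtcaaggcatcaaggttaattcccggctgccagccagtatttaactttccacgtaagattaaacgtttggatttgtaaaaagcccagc
The RefSeq start of Aqp1 lies upstream of the GENCODE gene start at 55336432, and the bases just after it were not found in the GENCODE transcripts of Aqp1. In the Aqp1 window the GC box began 190 bases before the RefSeq start. Kl had a pair of GC boxes, on opposite strands, at 43 and 17 bases before the start. The Otx2 window held TATAAA at 192 bases and the Kcne2 window a GC box on the minus strand at 95 bases. TAATCC occurred in 1 of the 10 member windows (10%), against 6.25% of all 32851 mouse promoter windows of that length. That window is the third Otx2 entry, which is not printed here. GGGCGG was in 5 of the 10 member windows (50%), against 32.7% of all windows, and TATAAA in 2 (20%), against 12.4%. Of the 10 member windows 4 belong to Otx2, and its first and second entries overlap, so the windows are not separate observations. These matches describe letters and do not show that a factor binds there.

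Ttr was by far the most abundant member. Ttr encodes transthyretin, the thyroxine and retinol-binding protein carrier that the choroid plexus epithelium secretes into cerebrospinal fluid. Its mean over the 16 libraries was 358 CPM, or 302 CPM per kilobase of exon. The other members followed at 3.22 CPM per kilobase for Clic6, 2.41 for Aqp1, 1.71 for Folr1, 1.66 for Sostdc1, 1.43 for Kl, 1.07 for Kcne2, 1 for Otx2, 0.713 for F5 and 0.614 for Slc4a5. Ttr, at 231 to 479.9 CPM per kilobase over the libraries, did not overlap the next gene, whereas each neighbouring pair from Clic6 (2.41 to 4.76) down to Slc4a5 (0.359 to 1.02) overlapped over the 16 libraries. Hepatocyte and plasma genes summed to at most 1.38 CPM, and Alb, the defining liver transcript, to at most 0.188 CPM, in libraries where Ttr never fell below 274 CPM. Crx, a pineal and retinal transcription factor, was at most 0.245 CPM, but the 5 pineal and retinal genes read here, Crx included, summed to 3.24 to 5.52 CPM.

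The level of Ttr varied more among mice of a group than between the groups. Ttr stood at 346, 462, 277 and 341 CPM in the 4 LPS-LPS mice, at 326, 339, 305 and 415 CPM in LPS-saline mice, at 346, 422, 569 and 284 CPM in saline-LPS mice, and at 375, 330.2, 313 and 274 CPM in saline-saline mice. The 4 groups overlapped, and saline-LPS mice alone covered nearly the whole range of the study. Group means of Ttr were 356 ± 76.7 CPM in LPS-LPS, 346 ± 48 in LPS-saline, 405 ± 123 in saline-LPS and 323 ± 41.8 in saline-saline mice (SD, n = 4 each). For Ttr the log2 fold change was 0.14 ± 0.20 (SE) for LPS-LPS against saline-saline, with an adjusted p of 0.743 in the quasi-likelihood test of edgeR (Benjamini-Hochberg). The 95% interval ran from -0.29 to 0.58. In bulk tissue, fewer choroid plexus cells in a sample and less RNA per choroid plexus cell cannot be told apart, and this holds for every member.

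**Figure D1:**
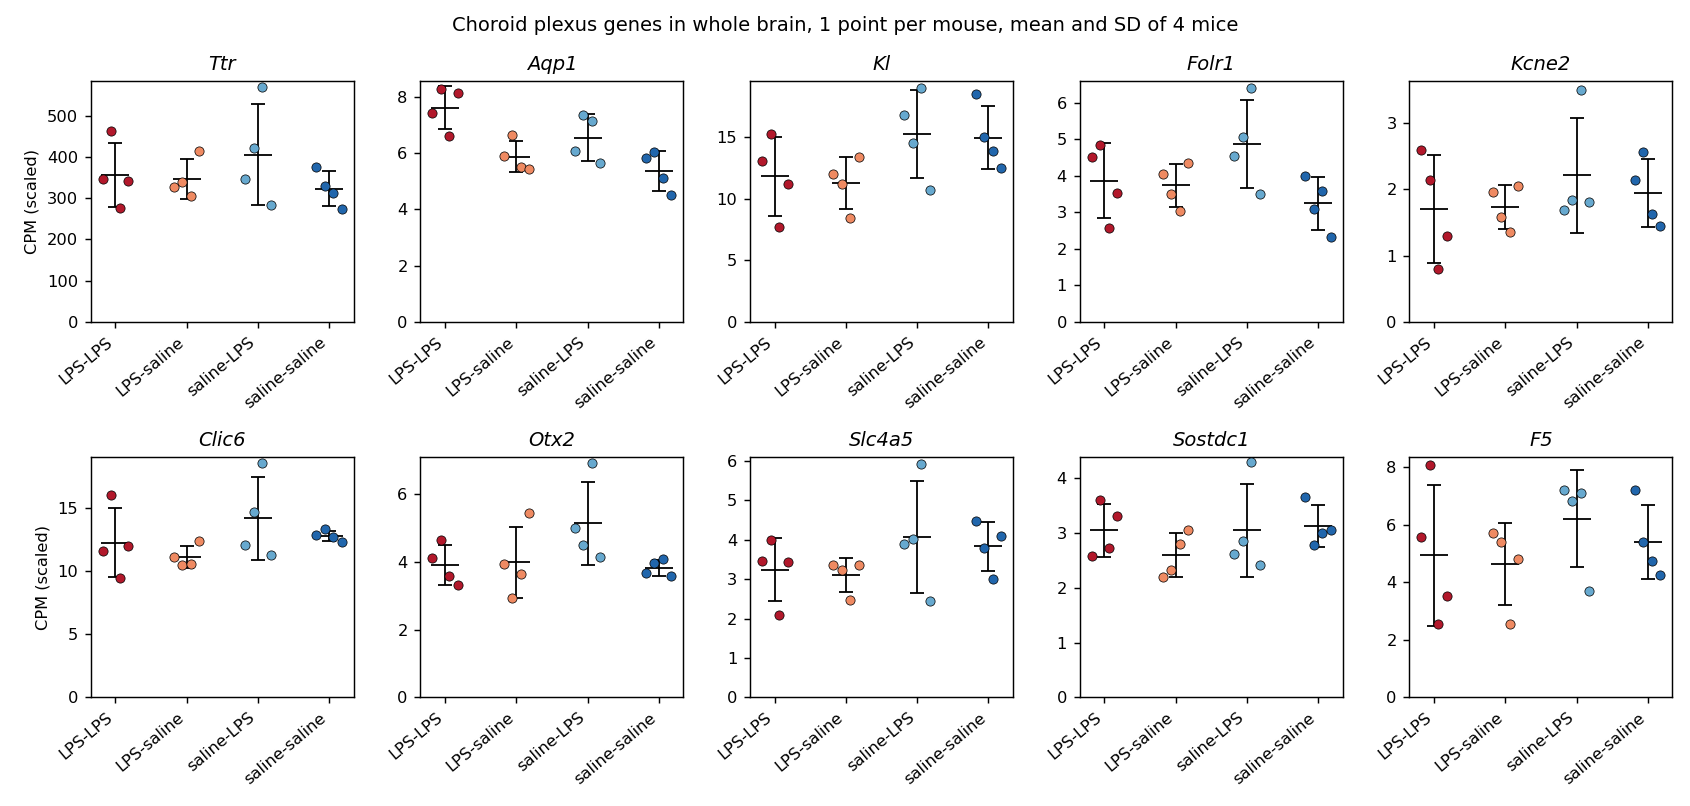
Scaled CPM of the 10 choroid plexus genes in LPS-LPS, LPS-saline, saline-LPS and saline-saline mice (x axis), with 1 point per mouse and the group mean and SD drawn as lines. Aqp1 lay at 6.61 to 8.26 CPM in LPS-LPS mice, above all 4 saline-saline mice at 4.49 to 6.03 CPM, while the groups of Ttr overlapped.

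Aqp1, which encodes the water channel of the apical membrane of the choroid plexus epithelium, was the member called between groups. It had 7.42, 8.26, 6.61 and 8.13 CPM in LPS-LPS mice, 5.89, 6.63, 5.5 and 5.44 CPM in LPS-saline mice, 6.06, 7.35, 7.14 and 5.64 CPM in saline-LPS mice, and 5.82, 6.03, 5.1 and 4.49 CPM in saline-saline mice. Every LPS-LPS mouse was above every saline-saline mouse, and the groups with 1 LPS injection lay between them with overlap on both sides. The means were 7.6 ± 0.762 CPM in LPS-LPS, 5.86 ± 0.547 in LPS-saline, 6.55 ± 0.829 in saline-LPS and 5.36 ± 0.7 in saline-saline mice (SD, n = 4 each). Aqp1 rose 1.42-fold in LPS-LPS against saline-saline mice, a log2 difference of 0.50 ± 0.12 (SE) with an adjusted p of 0.0172 in the quasi-likelihood test of edgeR (Benjamini-Hochberg). The 95% interval of that log2 difference was 0.26 to 0.75. Aqp1 was thus 1 of 10 members called in this comparison, against 6.56% of all tested genes, so the count for the set was near the background. Groups that did not overlap were found for 17.4% of all tested genes.

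Each injection taken alone gave Aqp1 a smaller difference, and none passed the threshold. Pubertal LPS after prenatal LPS gave Aqp1 a log2 difference of 0.37 ± 0.12 (SE; unadjusted p = 0.00506, adjusted p = 0.897 by edgeR), in a comparison that called 0% of genes (756 genes had an unadjusted p under 0.05, and DESeq2 called 9). Pubertal LPS after saline gave 0.28 ± 0.12 (adjusted p = 1). Prenatal LPS before pubertal LPS gave 0.22 ± 0.12 (adjusted p = 0.426, with 0.609% of genes called, 115 genes, or 326 with the replicate number as a block). Prenatal LPS before saline gave 0.13 ± 0.12 (adjusted p = 0.708, with 0.18% of genes called, 34 genes, or 409 with that block). No member was called in these 4 comparisons. Averaged over the prenatal injection, Aqp1 was at 7.08 CPM in mice given LPS in puberty and at 5.61 CPM in mice given saline in puberty, a log2 difference of 0.33 ± 0.08 with an unadjusted p of 0.00084 and an adjusted p of 0.793. No gene at all was called in that averaged comparison (0% of genes; 947 genes had an unadjusted p under 0.05, and DESeq2 called 0). The interaction of the injections was 0.09 ± 0.17 on the log2 scale for Aqp1 (95% interval -0.26 to 0.44; adjusted p = 1), in a comparison where 0% of genes were called, 402 genes had an unadjusted p under 0.05 and DESeq2 called 1. A joint test of any difference among the 4 groups gave Aqp1 an adjusted p of 0.0724, where 2.37% of tested genes were called.

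The Aqp1 call held or was lost depending on a few choices. Leaving out LPS-LPS replicate 3, which carries Xist, the log2 difference between LPS-LPS and saline-saline was 0.56 (adjusted p = 0.031 by edgeR). It was 0.42 without saline-saline replicate 4, the lowest library for Aqp1 (adjusted p = 0.0714), and 0.47 without LPS-LPS replicate 4 (adjusted p = 0.0528). Among the 8 libraries with at least 1 CPM of Gabra6 it was 0.73 (adjusted p = 0.0317, where 5.41% of genes were called), and among the 8 libraries under 1 CPM it was 0.54 (adjusted p = 0.824, where 0.025% of genes were called). At 1 CPM or more of Gabra6 the only saline-saline mouse was replicate 4, the lowest library for Aqp1 at 4.49 CPM. Under 1 CPM the only LPS-LPS mouse was replicate 2, the highest library for Aqp1 at 8.26 CPM. Each subset thus had a single, extreme mouse in a compared group, so neither can decide whether the call holds. An offset for gene length and GC content gave a log2 difference of 0.40 (adjusted p = 0.0564, where 2.86% of genes were called). Without LPS-LPS replicate 1 and saline-LPS replicate 1, the libraries with most Gh, the log2 difference was 0.51 (adjusted p = 0.0189 by edgeR). Aqp1 is also made by cells outside the choroid plexus, so markers of neighbouring cell types were read in the same libraries. The 10 meningeal and stromal fibroblast genes summed to 289.8 to 342 CPM in LPS-LPS mice, against 245 to 299 CPM in saline-saline mice, with overlap, and 2 of these 10, Slc6a13 and Slc22a6, rose in this comparison, where 6.56% of all tested genes were called. Border macrophage genes summed to 20.4 to 21.7 CPM in LPS-LPS mice, against 15.3 to 19.5 CPM in saline-saline mice, with 0 of 7 called by edgeR (2 had an unadjusted p under 0.05). Endothelial genes, read because Aqp1 marks some vessels, summed to 101 to 133 CPM in LPS-LPS mice, against 113 to 192 CPM in saline-saline mice. Of the 6 endothelial genes 2 had a positive log2 difference in this comparison, with a median of -0.27, and 1 was called. The called gene was Plvap, a component of the diaphragms of fenestrated vessels such as those of the choroid plexus stroma. Plvap rose to a mean of 9.65 CPM in LPS-LPS mice, against 7.56 CPM in saline-saline mice (log2 difference 0.35 ± 0.10, SE; adjusted p = 0.0343 by edgeR). Across mice, its deviations from group means had a Pearson r of -0.348 with the mean of the members. The part of these cell types in the Aqp1 result was not tested.

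Kl, which encodes the anti-ageing protein klotho, a co-receptor for fibroblast growth factor 23 that is abundant in choroid plexus and kidney, had its lowest levels in mice of LPS-treated dams. Kl stood at 13.1, 15.3, 7.71 and 11.2 CPM in LPS-LPS mice, at 12, 11.2, 8.4 and 13.4 CPM in LPS-saline mice, at 16.8, 14.5, 19 and 10.7 CPM in saline-LPS mice, and at 18.5, 15, 13.9 and 12.5 CPM in saline-saline mice. The prenatal LPS and prenatal saline mice overlapped, with the lowest prenatal saline mouse at 10.7 CPM inside the prenatal LPS range. The mean was 11.5 CPM in mice of LPS-treated dams and 15.1 CPM in mice of saline-treated dams. That is a log2 difference of -0.39 ± 0.15 (SE; 95% interval -0.71 to -0.08) with an unadjusted p of 0.0182 and an adjusted p of 0.118 by edgeR, which did not pass the threshold. In that averaged prenatal comparison 7.82% of all genes were called by edgeR and 0 of the 10 members, with an unadjusted p under 0.05 for Kl alone. DESeq2 gave the same Kl difference of -0.39 an adjusted p of 0.0304, in a test that called 6.49% of genes. The size without LPS-LPS replicate 3 was -0.31 (adjusted p = 0.18 by edgeR).

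Because Kl followed Ttr closely from mouse to mouse, a fit with the Ttr level of each library as a covariate was added after the values were seen. In it the averaged prenatal difference of Kl was -0.37 ± 0.08 (SE; adjusted p = 0.0149, with 6.28% of genes called), and Kl in LPS-LPS against saline-saline mice was -0.48 ± 0.12 (adjusted p = 0.029, with 5.28% of genes called). Without the covariate, that LPS-LPS difference of Kl was -0.34 ± 0.21 (SE, 95% interval -0.78 to 0.10, adjusted p = 0.373 by edgeR), which did not pass the threshold. Leaving LPS-LPS replicate 3 out of the fit without the covariate gave Kl -0.18 (adjusted p = 0.689 by edgeR). Aqp1 in the covariate fit was 0.45 in LPS-LPS against saline-saline mice (adjusted p = 0.0218). The covariate takes out the part of each gene's variation that Ttr shares, and left Kl lower and Aqp1 higher relative to Ttr in LPS-LPS mice. Ttr was itself measured in the same libraries, so these are levels relative to Ttr and not levels in tissue.

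Of the 10 members 8, all but Aqp1 and Sostdc1, had their highest mean in saline-LPS mice, the group that holds the library highest for 8 members, and of these 8 Folr1 and Otx2 had an unadjusted p under 0.05 against saline-saline mice. Folr1 encodes folate receptor alpha, which carries folate across the choroid plexus epithelium, and Otx2 encodes a homeodomain transcription factor needed to form and maintain that epithelium. Folr1 had 4.53, 5.06, 6.39 and 3.49 CPM in saline-LPS mice, against 3.98, 3.1, 3.57 and 2.31 CPM in saline-saline mice. These groups overlapped, and the log2 difference was 0.58 ± 0.21 (SE; unadjusted p = 0.0106, adjusted p = 1 by edgeR). Otx2 had 5, 4.5, 6.91 and 4.14 CPM in saline-LPS mice, against 3.68, 3.97, 4.1 and 3.6 CPM in saline-saline mice. These did not overlap, which 1.54% of all genes showed in this comparison, but the lowest saline-LPS mouse lay just above the highest saline-saline mouse and the log2 difference of 0.42 ± 0.17 had an adjusted p of 1. Without saline-LPS replicate 3, at 6.91 CPM, that difference was 0.24 (adjusted p = 1). No gene passed the threshold for saline-LPS against saline-saline mice (0% called; 535 genes had an unadjusted p under 0.05, and DESeq2 called 0). In LPS-LPS mice Folr1 averaged 3.86 ± 1.03 CPM and Otx2 3.92 ± 0.587 CPM, and in LPS-saline mice 3.74 ± 0.588 CPM and 3.99 ± 1.05 CPM (SD, n = 4 each). Folr1 shares its locus with Anapc15 on the opposite strand, counted at 89 to 174 reads, and Otx2 with the antisense Otx2os1, at 1 to 11 reads. The sources used here do not say whether counting used the strand, so it is not known how reads in stretches shared by these pairs were assigned or whether they were left out.

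None of the ion transport members was called in any comparison. Kcne2, a beta subunit of potassium channels in the apical membrane, averaged 1.7 ± 0.816 CPM in LPS-LPS, 1.74 ± 0.326 in LPS-saline, 2.21 ± 0.866 in saline-LPS and 1.95 ± 0.506 in saline-saline mice (SD, n = 4 each). Clic6, a member of the chloride intracellular channel family, averaged 12.2 ± 2.73 CPM in LPS-LPS, 11.2 ± 0.854 in LPS-saline, 14.2 ± 3.31 in saline-LPS and 12.8 ± 0.391 in saline-saline mice. Slc4a5, a sodium bicarbonate cotransporter of the apical membrane, averaged 3.24 ± 0.81 CPM in LPS-LPS, 3.11 ± 0.422 in LPS-saline, 4.07 ± 1.42 in saline-LPS and 3.83 ± 0.621 in saline-saline mice. All 3 had overlapping groups in every one of the comparisons of LPS-LPS, LPS-saline and saline-LPS with saline-saline mice. Slc4a5 had a log2 difference of -0.32 ± 0.16 (SE) for prenatal LPS averaged over the pubertal injection, with an adjusted p of 0.23 by edgeR. For Clic6 that difference was -0.20 ± 0.10 (adjusted p = 0.237) and for Kcne2 it was -0.28 ± 0.22 (adjusted p = 0.492). Without saline-LPS replicate 3 these differences were -0.20 for Slc4a5, -0.12 for Clic6 and -0.12 for Kcne2. LPS-LPS replicate 3 was the lowest library for all 3, and without it that of Kcne2 was -0.16. Leaving out any single mouse, LPS-LPS replicate 3 included, gave -0.41 to -0.20 for Slc4a5 and -0.28 to -0.12 for Clic6. With all mice, the intervals of Slc4a5, Clic6 and Kcne2 reached -0.64, -0.42 and -0.73 on the low side, so differences of that size remain within their error.

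The signalling inhibitor and the coagulation factor of the set gave no call either. Sostdc1, a secreted antagonist of bone morphogenetic protein and Wnt signalling, averaged 3.04 ± 0.482 CPM in LPS-LPS, 2.59 ± 0.395 in LPS-saline, 3.04 ± 0.844 in saline-LPS and 3.12 ± 0.379 in saline-saline mice (SD, n = 4 each). F5, coagulation factor V, averaged 4.94 ± 2.45 CPM in LPS-LPS, 4.63 ± 1.43 in LPS-saline, 6.21 ± 1.68 in saline-LPS and 5.4 ± 1.29 in saline-saline mice. F5 was the most variable member. Its LPS-LPS mice alone covered 5.58, 8.09, 2.56 and 3.54 CPM, a wider range than that between any pair of its group means. The log2 difference of LPS-LPS against saline-saline mice was -0.13 ± 0.34 (SE) for F5, with an interval from -0.86 to 0.59, and -0.04 ± 0.17 for Sostdc1, with an interval from -0.40 to 0.32.

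**Figure D2:**
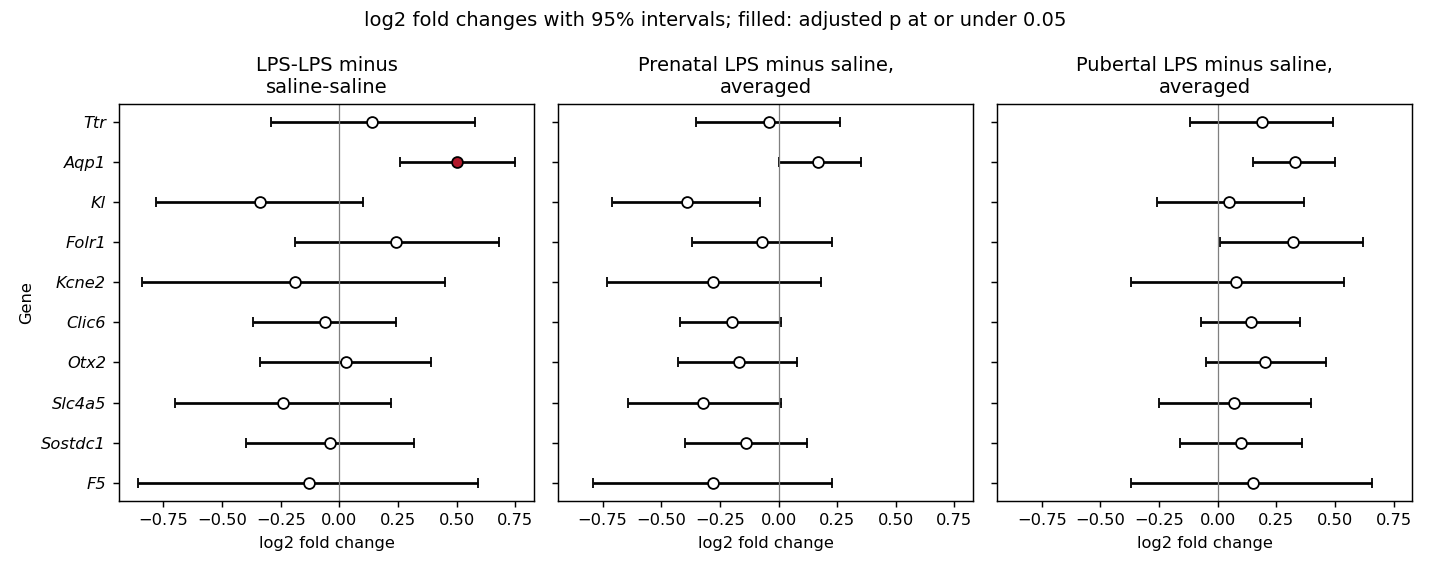
log2 fold changes (x axis) of the 10 genes (rows) with 95% intervals, for LPS-LPS minus saline-saline, prenatal LPS minus saline averaged over the pubertal injection, and pubertal LPS minus saline averaged over the prenatal injection. The filled point is Aqp1 at 0.50 in LPS-LPS against saline-saline mice, the member with an adjusted p at or under 0.05, and most other intervals cross 0.

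The signs of the averaged differences fell mostly to one side for each injection. Prenatal LPS averaged over the pubertal injection gave a positive log2 difference for 1 of 10 members, Aqp1, with a median of -0.19, beside a median of -0.01 over all tested genes. That count differed with the second injection: 1 of 10 was positive for prenatal LPS before pubertal LPS (median -0.33) and 4 of 10 for prenatal LPS before saline (median -0.19). Pubertal LPS averaged over the prenatal injection gave a positive difference for 10 of 10, with a median of 0.14, beside 0.00 over all tested genes. None of these averaged differences was called, with an unadjusted p under 0.05 for 1 member after prenatal LPS and for 2, Aqp1 and Folr1, after pubertal LPS. Since the members deviated together within each mouse, as described below, their signs are not separate observations. For LPS-LPS against saline-saline mice 4 of 10 were positive, with a median of -0.05. The upward lean for averaged pubertal LPS was not particular to the members. It was positive for 7 of 7 border macrophage genes, 8 of 9 ependymal genes, 8 of 10 fibroblast genes and 5 of 5 red cell genes. Endothelial genes (1 of 6 positive), pineal and retinal genes (2 of 4) and liver genes (0 of 1) did not lean upward. For averaged prenatal LPS, red cell genes (0 of 5 positive), endothelial genes (2 of 6) and liver genes (0 of 1) leaned downward like the members. Fibroblast genes (10 of 10), ependymal genes (7 of 9), border macrophage genes (5 of 7) and pineal and retinal genes (2 of 4) did not.

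The 25 other choroid plexus epithelial genes that were tested lay the same way for each averaged injection, but not in LPS-LPS against saline-saline mice. Their mean followed Ttr across mice, as described below, so their signs are not separate observations either. For prenatal LPS averaged over the pubertal injection, 8 of 25 were positive with a median of -0.13, and 0 were called by edgeR, where 7.82% of all genes were (4 of the 25 had an unadjusted p under 0.05). For pubertal LPS averaged over the prenatal injection, 22 of 25 were positive with a median of 0.19, and 0 were called by edgeR (3 had an unadjusted p under 0.05). In LPS-LPS against saline-saline mice 15 of 25 were positive with a median of 0.04, and 1 of 25 was called, no larger a share than the 6.56% of all tested genes. The called gene was Lbp, which encodes the LPS-binding protein that presents endotoxin to its receptor. Lbp averaged 8.42 CPM in LPS-LPS mice and 6.38 CPM in saline-saline mice, a log2 difference of 0.40 ± 0.11 (SE; adjusted p = 0.0324 by edgeR). Its groups did not overlap, as for 17.4% of all tested genes.

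Differences among mice of one group were large for these genes. The SD of log2(CPM + 0.5) within groups was 0.48 for F5, 0.40 for Kcne2, 0.32 for Kl and Slc4a5, 0.30 for Folr1, 0.29 for Ttr, 0.24 for Otx2, 0.22 for Clic6 and Sostdc1, and 0.15 for Aqp1. The median of the 10 was 0.30, beside 0.15 over all tested genes. Ttr, an abundant transcript whose counting error is small, had a larger SD than 99.8% of the 539 genes within 1.5-fold of its level. Aqp1 was less variable, and 42.2% of the 1829 genes near its level had a smaller SD. The biological coefficient of variation from edgeR was 19.4% as the median of the members, beside 10.3% over all tested genes.

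**Figure D3:**
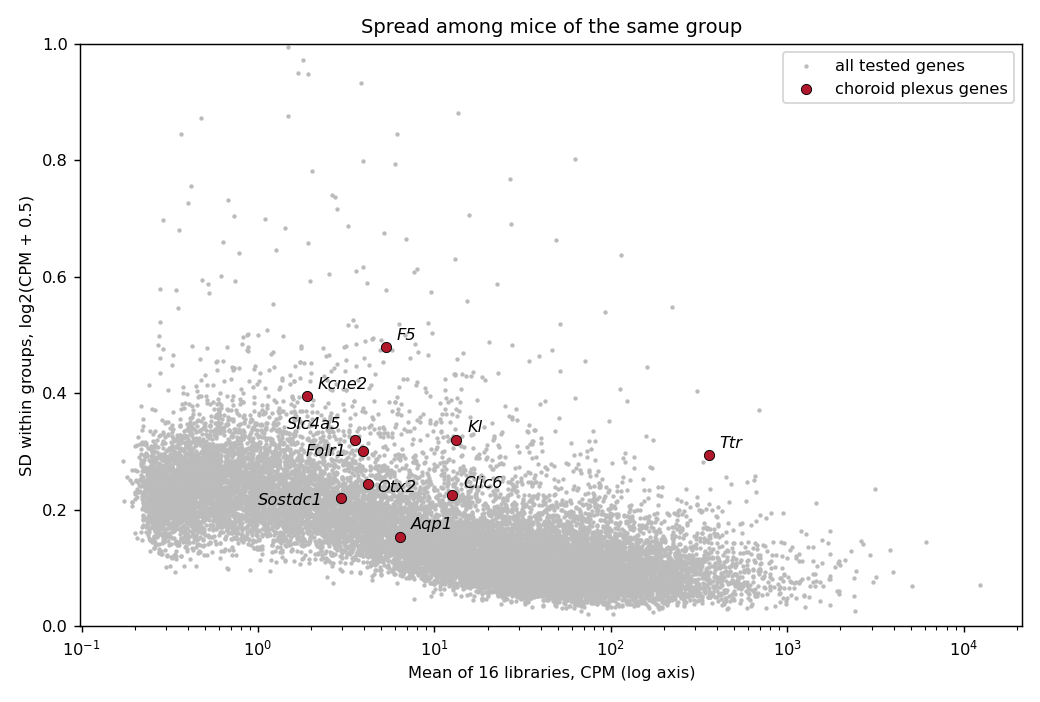
SD within groups of log2(CPM + 0.5) (y axis) against the mean CPM of 16 libraries (x axis, log scale) for the tested genes in grey and the choroid plexus genes in red. 28 genes with an SD above 1 lie beyond the y axis. Ttr, with an SD of 0.29, sits above nearly all genes of its level, and Aqp1, with 0.15, lies within the cloud.

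Differences between groups made up the minor share of the variation of 9 members. Between-group differences made up 63.4% of the sum of squares of Aqp1, a larger share than in 95.5% of tested genes. The share was 33.3% for Folr1, 33.1% for Otx2, 32.3% for Kl, 25.2% for Clic6, 18.6% for Slc4a5, 17.9% for Sostdc1, 14.3% for Ttr, 13.2% for F5 and 11.7% for Kcne2. The median over all tested genes was 21.1% and that of the members 21.9%, so the set as a whole was near the background. Ttr group means spanned 0.29 on the log2 scale, while mice inside a single group spanned up to 1.00. F5 group means spanned 0.40 and its mice inside a group up to 1.49. For Aqp1 the order was turned round, with group means spanning 0.47 and mice inside a group at most 0.39.

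The deviations of mice from their group means were shared among the members. Clic6 followed Ttr most closely, with a Pearson r of 0.933 and a Spearman rho of 0.868 over 16 mice (permutation p = 0.00013, adjusted p = 0.00081 for r over the 9 relations, and permutation p = 0.00128, adjusted p = 0.00414 for rho). The other r values with Ttr were 0.883 for Folr1, 0.846 for Kl, 0.836 for Slc4a5, 0.796 for Sostdc1, 0.73 for Kcne2, 0.723 for F5, 0.707 for Otx2 and 0.675 for Aqp1. All 9 passed an adjusted p of 0.05, from 0.00081 for Folr1 to 0.014 for Aqp1, in a permutation test within groups. Spearman's rho for these 8 lay between 0.568 for Otx2 (adjusted permutation p = 0.0472) and 0.859 for Folr1 (adjusted permutation p = 0.00252). Without saline-LPS replicate 3 and LPS-LPS replicate 2, the libraries farthest from the median of Ttr, r lay between 0.438 for Otx2 and 0.853 for Clic6. For Otx2, Sostdc1 (0.539) and Kcne2 (0.545) the relation rested in part on those libraries.

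**Figure D4:**
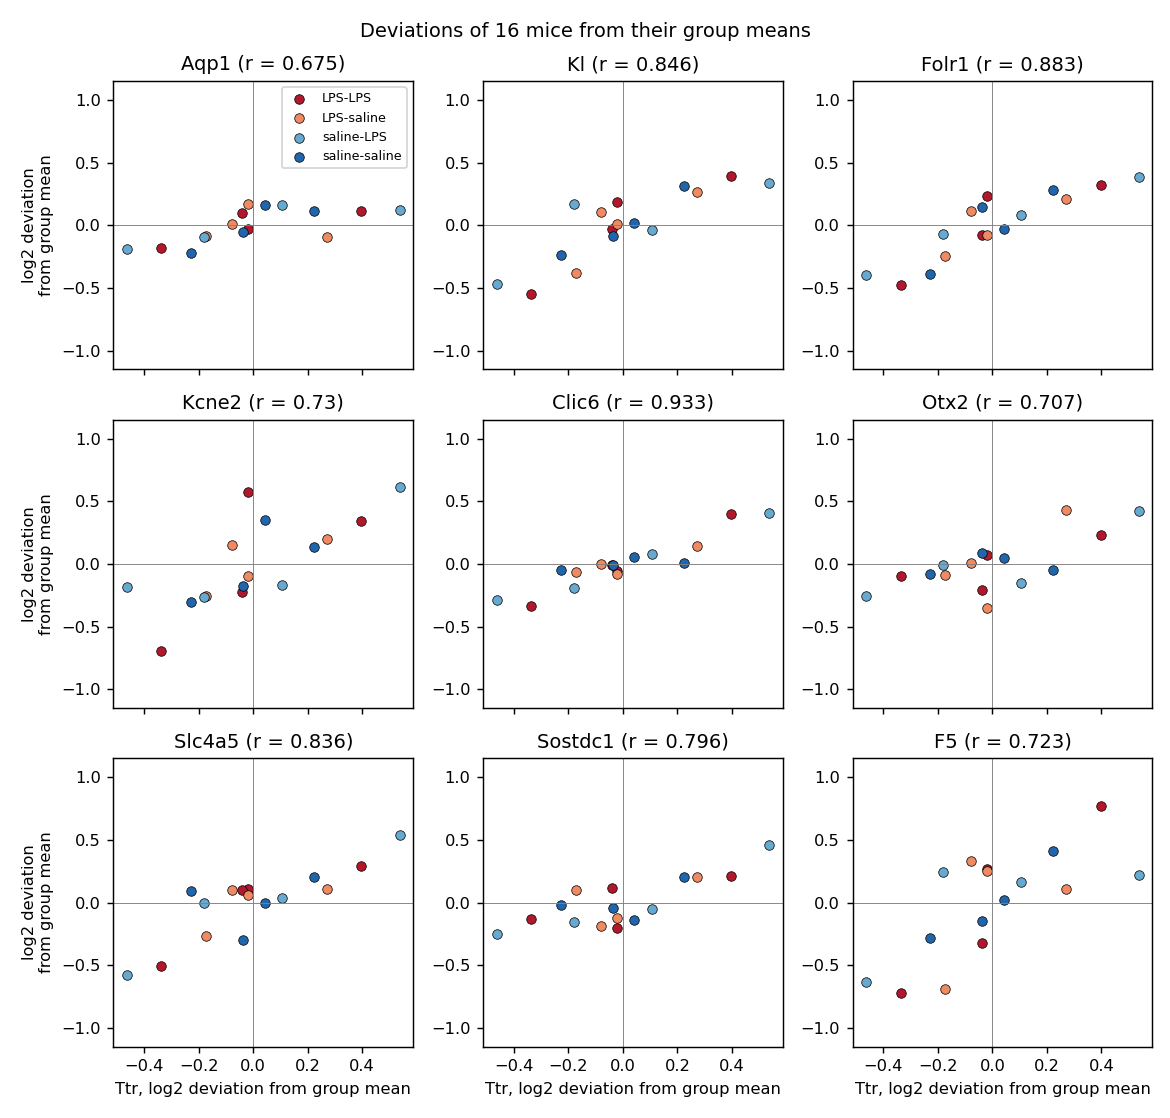
Deviation of each of 9 genes from its group mean (y axis, log2) against that of Ttr (x axis, log2) in 16 mice, coloured by group, with Pearson r in each panel title. Points rise from lower left to upper right in every panel, from r = 0.675 for Aqp1 to r = 0.933 for Clic6.

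Few other genes followed Ttr to that degree. Of 15219 non-member genes with a mean of at least 1 CPM, 0.191% had an r with Ttr of 0.675 or more, and the median r was 0.000171. Among all 45 pairs of members, 45 had a positive r, with a median of 0.7 and a range of 0.0509 to 0.933. Within the 8 libraries at 1 CPM or more of Gabra6, r with Ttr lay between 0.739 for Aqp1 and 0.961 for Clic6. Within the 8 under 1 CPM it lay between 0.372 for Otx2 and 0.896 for Sostdc1. The level of Ttr was 274 to 569 CPM (median 323) in the libraries with Gabra6 at 1 CPM or more and 313 to 462 CPM (median 343) in those under 1 CPM.

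The shared variation took in other genes of the choroid plexus epithelium. The mean of the 25 other epithelial genes had an r with Ttr of 0.902 and a rho of 0.829 (adjusted permutation p = 0.00224 and 0.0049 over 7 lists), and an r of 0.781 without the 2 farthest libraries. The r was 0.233 for ependymal cells, which line the ventricles, 0.173 for red cell genes, 0.0739 for border macrophages, 0.0384 for pineal and retinal genes, -0.0316 for endothelium and -0.124 for meningeal fibroblasts. None of those 6 passed, each with an adjusted permutation p of 0.938, although such a p does not show that they are unrelated. These list correlations were added after the values were seen.

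The 10 non-member genes most like the mean of the members across mice were Enpp2 (r = 0.912), Cldn2 (0.897), Tmem72 (0.877), Slc16a8 (0.831), Mfrp (0.829), Ing1 (0.811), Ace (0.803), Zbtb7b (0.767), the long intergenic RNA Gm45869 (0.747) and Abca4 (0.742), over 16 libraries. Of these, 7 were on the list of other choroid plexus epithelial genes. Enpp2, which encodes the secreted lysophospholipase autotaxin, was at 366 CPM on average. Cldn2, a pore-forming claudin of the epithelial tight junction, averaged 2.63 CPM. Enpp2 averaged 328 CPM in mice of LPS-treated dams and 404 CPM in mice of saline-treated dams, a log2 difference of -0.30 ± 0.11 (SE; unadjusted p = 0.017, adjusted p = 0.113 by edgeR), the same order as for Kl and likewise not called.

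A few libraries carried much of this shared variation. Saline-LPS replicate 3 was the highest of the 16 for 8 of the 10 members, with a median log2 difference of 0.62 from the mean of all libraries. LPS-LPS replicate 2 was highest for the other 2, Aqp1 and F5, and its median difference was 0.28. LPS-LPS replicate 3, which carries Xist, was lowest for 5 members and had a median difference of -0.44. LPS-saline replicate 3 was among the lowest 4 libraries for 8 members, at a median of -0.25, and saline-saline replicate 4 was lowest for 3, at -0.20. Without LPS-LPS replicate 3 and saline-LPS replicate 3 together, a choice made after seeing the values, Aqp1 in LPS-LPS against saline-saline mice was 0.56 (adjusted p = 0.0349 by edgeR) and the averaged prenatal difference of Kl was -0.25 (adjusted p = 0.271).

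**Figure D5:**
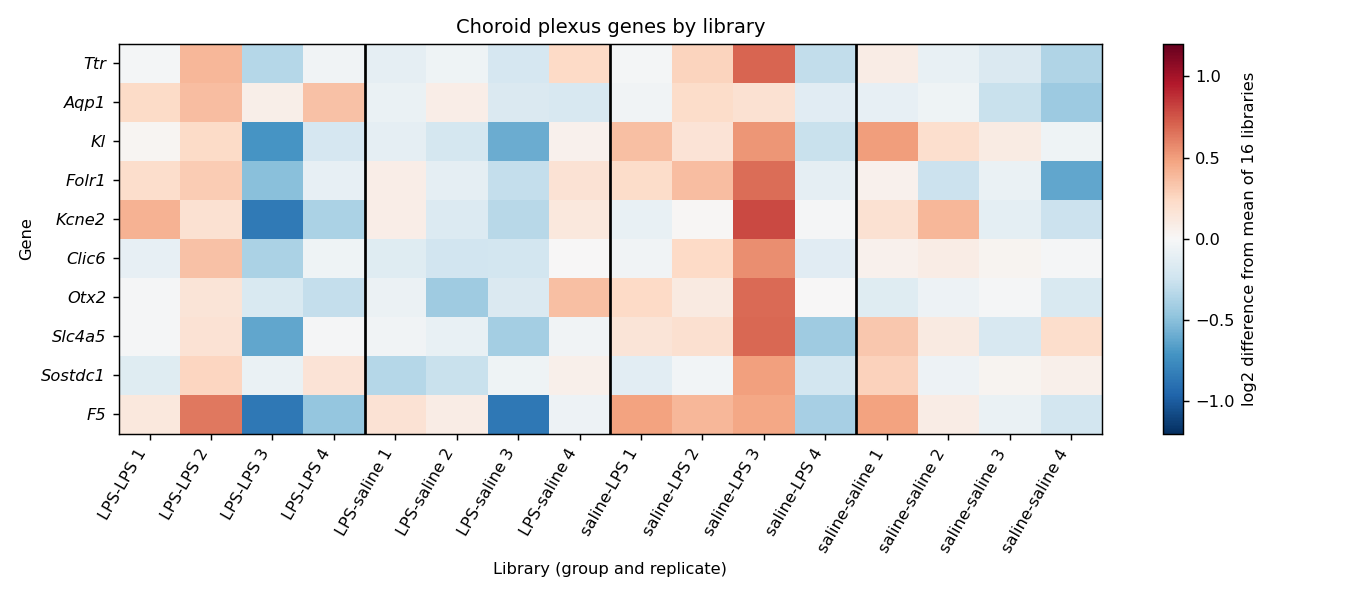
log2 difference of each gene (rows) from its mean over 16 libraries in each library (columns, by group and replicate); red is above and blue below the mean. Saline-LPS replicate 3 is red for nearly all genes (median 0.62) and LPS-LPS replicate 3 is blue for most (median -0.44), which differ more than the groups do.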

How the data were processed

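Whole-brain RNA of 16 mice was counted per gene. Per the submitters' processing notes, tools named STAR 2.5.2b and HTSeq 0.11.2 and the build GRCm38 were used; the sources used here do not give the strand setting, annotation release or filters. The deposited values are raw whole-number counts per Ensembl gene, made by the authors, 1 file per mouse. The 5 special HTSeq entries entered neither library sizes nor tests. As shares of gene counts and special entries together, reads in no feature were 8.37 to 11%, ambiguous reads 5.11 to 5.48% and non-unique alignments 3.18 to 3.9%. GENCODE M21 matched 49412 of 49671 IDs, and 259 had no match.

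Counts were tested with edgeR 4.0.16 in R 4.3.3 (TMM, filterByExpr by group, robust quasi-likelihood fit of all 16 libraries, 12 residual degrees of freedom, common biological coefficient of variation 10.4%). Benjamini-Hochberg adjustment ran over all 18875 tested genes in each of 9 comparisons, with a threshold of 0.05. Deviations from group means of log2(CPM + 0.5) gave the spread and the correlations, tested by 100000 permutations within groups (scipy 1.17.1). Alternatives were DESeq2 1.42.0, other scalings, filters, covariates, offsets, library subsets and leaving out each mouse. All members and lists were chosen with earlier results of these data known; named genes were the 10 members, up to 3 called genes of each other list and the 10 likest non-members. The scripts were tested on simulated data. No pair of libraries of a group agreed within sampling noise (chi-square per degree of freedom 5.18 to 35.7). Replicate numbers are shared between groups. Over 11947 genes, same-numbered mice deviated together (r over 0.1 for every pair) in 3 of the 5 comparisons of single groups, with r of 0.169 to 0.709, but not for pubertal LPS after saline (lowest 0.0331) or for LPS-LPS against saline-saline (lowest 0.0173); no source states what the numbers mean.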

Additional observations from a re-analysis of the deposited data

Results flagged for a closer look

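Of 40 sets of 4 mice (10 genes in 4 groups), 3 had a mouse far from the other 3 by Dixon's ratio, and chance alone marks about 1 in 20. Kcne2 was at 3.5 CPM in saline-LPS replicate 3, where the nearest mouse of the group had 1.84 CPM. Slc4a5 was at 2.48 CPM in LPS-saline replicate 3, where the nearest had 3.24 CPM. F5 was at 3.71 CPM in saline-LPS replicate 4, where the nearest had 6.83 CPM.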

How the results depend on the processing

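Of 1702 member differences recomputed under other settings, 1665 kept their side of the threshold, 4 lost the call (Aqp1 in LPS-LPS against saline-saline mice, values above), 7 gained one, and 26 uncalled differences changed sign by more than their standard error; a further 53 changed sign by less. All 180 recomputed correlations with Ttr kept their sign and side, and all 200 spreads stayed within 1.5-fold. For LPS-LPS against saline-saline mice, 1 member was called, against 0 with length and GC offsets, 2 with the Ttr covariate (Aqp1 and Kl), and 0 to 1 on leaving out single mice. For prenatal LPS averaged over the pubertal injection, 0 were called, against 1 (Kl) with DESeq2 and 1 (Kl) with the Ttr covariate. For any difference among the groups, 0 were called, against 1 (Aqp1) with DESeq2, 1 with the Gabra6 covariate and 0 to 1 on leaving out single mice (1 without saline-LPS replicate 1, adjusted p = 0.0418). With the replicate number as a block, 1 member was called in that joint test (Aqp1, adjusted p = 0.0226), Aqp1 in LPS-LPS against saline-saline mice was 0.51 (adjusted p = 0.00509), and no other member call changed. Over all genes the block gave 2185 calls for LPS-LPS against saline-saline, 2495 for averaged prenatal LPS and 1144 in the joint test (448 without it). The causes were not tested.

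The reversed log2 differences were all uncalled. In the libraries under 1 CPM of Gabra6, LPS-LPS replicate 2 was the only LPS-LPS mouse, and it was among the highest 4 libraries for 9 members. In those at 1 CPM or more, saline-saline replicate 4 was the only saline-saline mouse. Among libraries under 1 CPM of Gabra6 they were, for prenatal LPS before saline, -0.20 for Otx2; for prenatal LPS before pubertal LPS, 0.01 for Folr1; for pubertal LPS after prenatal LPS, 0.44 for Otx2; for LPS-LPS against saline-saline, 0.30 for Clic6, 0.08 for Slc4a5, 0.18 for Sostdc1 and 0.48 for F5. In the same libraries they were, for averaged prenatal LPS, 0.11 for Ttr, 0.01 for Kcne2 and 0.07 for F5, and for the interaction 0.16 for Otx2. Among libraries at 1 CPM or more of Gabra6 they were 0.12 for Kcne2 in LPS-LPS against saline-saline, 0.09 for Folr1 in averaged prenatal LPS, and -0.09 for Aqp1 and -0.27 for Kl in the interaction. Without LPS-LPS replicate 3 and saline-LPS replicate 3, averaged prenatal LPS gave 0.11 for Ttr, 0.09 for Folr1 and 0.00 for Kcne2. Leaving out single mice moved Otx2 between -0.14 (without LPS-saline replicate 4) and 0.17 for prenatal LPS before saline, and between -0.14 and 0.16 (without LPS-saline replicate 4) for pubertal LPS after prenatal LPS. With the Ttr covariate, pubertal LPS after saline gave -0.25 for Kl, and averaged pubertal LPS gave -0.11 for Kl, -0.14 for Kcne2, 0.00 for Clic6, -0.13 for Slc4a5 and -0.03 for Sostdc1.

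Without LPS-LPS replicate 3, the number of genes called overall was 297 for LPS-LPS against saline-saline (1238 with it) and 736 for averaged prenatal LPS (1476 with it). Leaving out single mice gave 297 to 1981 and 700 to 1645. Kcne2, at 25 reads in its lowest library, is the member whose counting error limits it most.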
